A study of Homo sapiens with 6 samples.

Results

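Intergenic BG4 peaks are sites outside protein-coding genes and away from the ends of all genes at which DNA G-quadruplexes (G4s) were recovered by chromatin immunoprecipitation and sequencing (ChIP-seq) from U2OS cells, a human osteosarcoma line. A peak of either list was counted here when it lay outside every protein-coding gene, more than 1 kb from both ends of every gene of any type, and more than 5 Mb from the midpoint of the centromere bands. Peaks in a 1 Mb stretch at the edge of the heterochromatin of chromosome 1q and at the ribosomal DNA of chromosome 21 (8200000 to 8470000) were left out. The rule uses position alone, and it kept 614 of 5548 peaks on chromosomes 1 to 22 and X, 211 of 2172 in the list from cells treated with 1,6-hexanediol (HD) and 403 of 3376 in the list from untreated cells (Ctrl). Both conditions used the same line and the BG4 antibody, with 2 ChIP libraries and 1 input library each. The sources used here do not state the HD dose or its duration. With 1 peak list for each condition, library-to-library spread could not be measured, and HD and Ctrl values are set side by side without a test between conditions. Every one of the 2269 HD peaks is named after replicate 1.

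A G4 forms when guanine runs of a single strand pair in stacked planes held together by a central cation. G4s are best known from gene promoters and from the guanine-rich repeat of telomeres, and BG4 is an antibody fragment raised against the folded structure. U2OS cells keep their telomeres long by recombination, without telomerase. 1,6-hexanediol is an aliphatic alcohol that dissolves many condensates held by weak hydrophobic contacts.

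A few of the peaks overlapped a transcript start region inside a noncoding gene, and their sequences show what such sites look like. In RefSeq (GRCh38.p14), windows of 300 bases around transcript starts, 250 before and 50 after, overlapped 4 HD peaks and 2 Ctrl peaks, in 5 lncRNA genes (genes of long RNAs that encode no protein). The windows of LOC105378678 (chr1:41432950-41433249, plus strand), LOC105373480 (chr2:740636-740935, plus strand), LOC105370680 (chr14:102524570-102524869, plus strand) and LOC105370034 (chr12:121686885-121687184, plus strand) are given 5′ to 3′ with runs of 3 or more G or C in capitals, since such runs are the parts of a strand, or of its complement, that can build a G4.
LOC105378678: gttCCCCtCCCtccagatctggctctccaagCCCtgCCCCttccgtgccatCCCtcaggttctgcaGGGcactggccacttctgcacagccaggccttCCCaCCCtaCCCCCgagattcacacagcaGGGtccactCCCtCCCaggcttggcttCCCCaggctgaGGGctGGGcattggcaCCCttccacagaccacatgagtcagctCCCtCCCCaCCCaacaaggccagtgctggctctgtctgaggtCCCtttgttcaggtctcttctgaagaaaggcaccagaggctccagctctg
LOC105373480: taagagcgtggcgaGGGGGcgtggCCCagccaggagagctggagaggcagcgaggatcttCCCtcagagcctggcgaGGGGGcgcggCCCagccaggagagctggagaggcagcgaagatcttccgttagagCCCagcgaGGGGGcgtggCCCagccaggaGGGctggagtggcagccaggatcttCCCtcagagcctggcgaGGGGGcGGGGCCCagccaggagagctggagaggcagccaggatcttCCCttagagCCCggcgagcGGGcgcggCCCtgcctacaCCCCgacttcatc
LOC105370680: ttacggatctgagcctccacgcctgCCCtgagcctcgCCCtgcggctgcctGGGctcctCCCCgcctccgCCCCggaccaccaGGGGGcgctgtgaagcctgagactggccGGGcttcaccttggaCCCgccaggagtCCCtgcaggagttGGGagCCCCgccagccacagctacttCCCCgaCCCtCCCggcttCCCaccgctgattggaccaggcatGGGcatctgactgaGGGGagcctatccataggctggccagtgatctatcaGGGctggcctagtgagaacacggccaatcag
LOC105370034: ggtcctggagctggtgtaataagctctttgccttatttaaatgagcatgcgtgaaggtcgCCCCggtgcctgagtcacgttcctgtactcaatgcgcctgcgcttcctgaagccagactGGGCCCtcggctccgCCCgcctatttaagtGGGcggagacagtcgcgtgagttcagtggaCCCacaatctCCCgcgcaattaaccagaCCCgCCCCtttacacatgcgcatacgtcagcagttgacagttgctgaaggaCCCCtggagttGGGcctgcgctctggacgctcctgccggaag
The LOC105378678 window held 16 runs of C and 4 runs of G. It was covered in both lists, with 34 ChIP fragments at the summit in HD (23.5 to 47.5) and 39 in Ctrl (27.7 to 53.3). Fragment numbers were recovered from the caller's fold and p, and their exact 95% Poisson intervals cover counting error only. The LOC105373480 window repeats one unit, with GGGGGCG in it 4 times on the printed strand. Its HD peak held 25 fragments (16.2 to 36.9), with a summit 186 bp from the start, and overlapped a Ctrl peak that was itself within 1 kb of a gene end. That HD peak covered only the first 128 of the 300 bases, so not every GGGGGCG lay under it. The peaks at LOC105370680 (25 fragments, summit 31 bp from the start) and LOC105370034 (33 fragments, summit 7 bp from the start) were in the HD list only, with the nearest Ctrl peaks 437 kb and 116 kb away. The remaining gene, LOC105373578, had a Ctrl-only peak of 19 fragments that overlapped its window by 35 bp. On either strand, 4 runs of at least 3 G separated by 1 to 7 other letters were present in the LOC105370680 window and in none of the other 4 windows overlapped. Of all 35116 promoter windows of this length, 25% held that motif. The match is a description of these letters and not of a folded site.

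Intergenic peaks were sparse, and they thinned out with distance from genes. In HD there were 14.3 peaks per 100 Mb (exact 95% Poisson interval 12.4 to 16.3) and in Ctrl 27.2 (24.6 to 30.0), over 1479 Mb of sequence that met the rule, unassembled gaps included. The windows of 1 kb around coding gene ends held 1829 HD and 2513 Ctrl peaks per 100 Mb. At 1 to 2 kb from a gene end the HD density was 36.4 per 100 Mb (24.4 to 52.2) and the Ctrl density 69.0 (52.0 to 89.8). At 10 to 20 kb the HD density was 16.7 (12.1 to 22.4) and the Ctrl density 26.7 (20.8 to 33.8). Beyond 100 kb the HD density was 1.93 (0.527 to 4.95), from 4 peaks, and the Ctrl density 2.90 (1.06 to 6.31), from 6 peaks. Density fell at each step outward in both lists, although the intervals of most neighbouring steps overlapped or touched. The median distance to the nearest gene end was 7.55 kb in HD (quartiles 3.48 and 18.8) and 7.59 kb in Ctrl (3.61 and 19.7), while the median base of the eligible sequence lay 20.2 kb from a gene end. Unassembled gaps, which can hold no peak, were not removed from the steps or from that median base. Their share of each step was not computed. Close to the threshold, 8 HD peaks at 1 to 1.2 kb and 17 excluded HD peaks at 0.8 to 1 kb had median summits of 40.5 and 35 fragments. The corresponding 15 and 11 Ctrl peaks had 26.0 and 24.0 fragments.

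**Figure D1:**
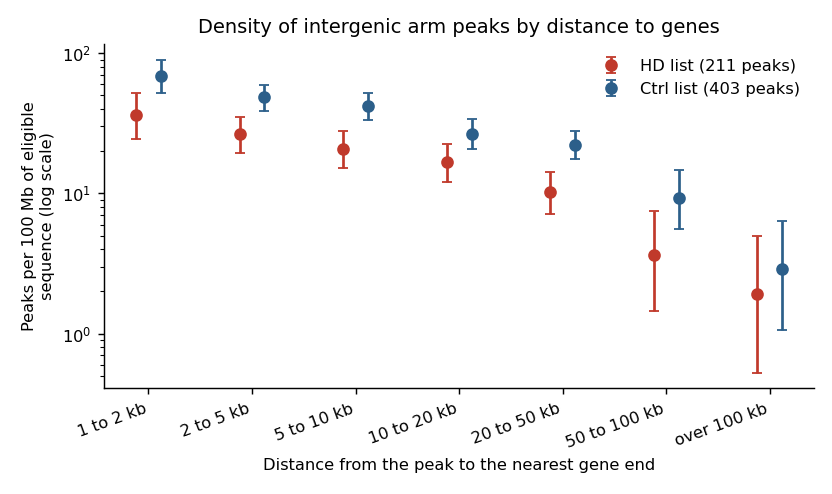
Peaks per 100 Mb of eligible sequence (log scale) against the distance from the peak to the nearest gene end, for HD (red) and Ctrl (blue), with exact 95% Poisson intervals as bars. Points descend from 36.4 in HD and 69.0 in Ctrl at 1 to 2 kb to 1.93 in HD and 2.90 in Ctrl beyond 100 kb.

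The gene-rich chromosomes 17, 19 and 22 had the most intergenic peaks per eligible Mb. Chromosome 22 had 91.6 per 100 Mb in HD (56.0 to 141) and 101 in Ctrl (63.2 to 153), chromosome 17 had 82.5 in HD (52.3 to 124) and 158 in Ctrl (115 to 212), and chromosome 19 had 65.7 in HD (31.5 to 121) and 92.0 in Ctrl (50.3 to 154). On chromosome 22, most HD peaks lay in a single stretch, 24947874 to 27671107. The caller's expectation from input was 2.64 to 5.58 times its genome-wide value at every HD peak there. At the low end, chromosome 13 had 1 HD and 3 Ctrl peaks, chromosome 4 had 3 HD and 4 Ctrl peaks, and X had 2 HD peaks and 1 Ctrl peak. The HD list held fewer intergenic peaks than the Ctrl list on 21 of 23 chromosomes, the exceptions being chromosome 11, with 10 in each, and X. The whole HD list was also the shorter one, with 2172 peaks against 3376 in Ctrl. Counts of all peaks by chromosome were not compared, so whether these differences are particular to intergenic peaks was not tested. Chromosome 15 had 4 HD and 21 Ctrl peaks, chromosome 18 had 2 HD and 10 Ctrl peaks, and chromosome 8 had 10 HD and 31 Ctrl peaks, while chromosome 22 had 20 HD and 22 Ctrl peaks. The share of the list that was intergenic was 9.71% in HD (exact 95% binomial interval 8.50 to 11) and 11.9% in Ctrl (10.9 to 13.1), intervals that touch. Limited to the 2172 strongest peaks of each list by −log10 q, intergenic peaks made up 9.71% of HD and 10.4% of Ctrl.

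LncRNA genes were the most frequent neighbours. The nearest gene end belonged to a lncRNA for 89 HD peaks (42.2%) and 174 Ctrl peaks (43.2%), whereas lncRNA genes made up 30.6% of the genes used. The share of eligible sequence nearest to a lncRNA end was not computed, so no excess can be read from these values. A coding gene was nearest for 79 HD peaks (37.4%) and 131 Ctrl peaks (32.5%), and a pseudogene for 35 HD peaks (16.6%) and 83 Ctrl peaks (20.6%). Of the same peaks, 33 in HD (15.6%) and 75 in Ctrl (18.6%) lay inside the body of a noncoding gene, and 178 in HD and 328 in Ctrl lay in no gene at all. Of 182 different genes that were the nearest coding gene to an HD intergenic peak, 28 (15.4%, 10.5 to 21.5) carried an HD peak at their own end, against 8.11% of all coding genes. Of 332 such genes in Ctrl, 59 (17.8%, 13.8 to 22.3) carried a Ctrl peak at their end, against 10.9% of all coding genes. All coding genes are a reference not matched by chromosome or gene density, so no excess can be read from these shares. Nearness is position only and assigns no peak to a gene. Whether peaks lay on the start side or the end side of their neighbour is not reported: strand was known for the neighbours of 59.6% of HD and 54.0% of Ctrl peaks outside genes, too few for that check.

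Intergenic peaks were found in the other list less often than the other peaks of their list, most of which lay at coding gene ends. Of 211 HD peaks, 107 (50.7%, exact binomial interval 43.8 to 57.6) overlapped a Ctrl peak by at least 1 bp, against 59.7% of the whole HD list. Of 403 Ctrl peaks, 107 (26.6%, 22.3 to 31.1) overlapped an HD peak, against 38.5% of the whole Ctrl list. Against the other peaks, of which 60.6% in HD were found, the odds ratio was 0.668 in HD (two-sided Fisher's exact test over peaks, p = 0.0062, adjusted p = 0.0124 over 4 tests). Against 40.1% of the other peaks in Ctrl, the odds ratio was 0.539 (the same exact test, p = 1.06e-07, adjusted p = 4.25e-07). The HD call was lost when peaks had to lie more than 5 kb from gene ends (odds ratio 0.669, exact test, adjusted p = 0.0566) and when the comparison was made within quintiles of −log10 q (pooled odds ratio 0.718, adjusted p = 0.0622), and over 10 alternatives the adjusted p ran between 0.00251 and 0.0622. The Ctrl call passed under all 10, with adjusted p up to 0.000546. A peak missing from a list is a missing call, and fragments at uncalled sites were not analysed here.

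**Figure D2:**
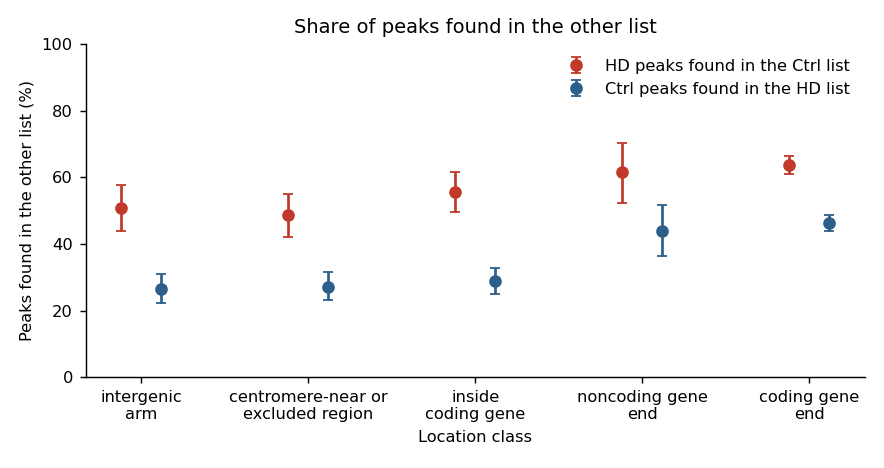
Percent of peaks found in the other list by location class, for HD peaks found in Ctrl (red) and Ctrl peaks found in HD (blue), with exact 95% binomial intervals. Intergenic arm peaks stand at 50.7% in HD and 26.6% in Ctrl, and coding gene end peaks at 63.8% in HD and 46.3% in Ctrl.

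By location, sharing stood at 63.8% in HD and 46.3% in Ctrl at coding gene ends, 61.7% in HD and 43.9% in Ctrl at noncoding gene ends, 55.7% in HD and 28.8% in Ctrl within coding genes, and 48.6% in HD and 27.2% in Ctrl near centromeres and in the excluded regions. The low share was not particular to intergenic peaks. Those near centromeres and in the excluded regions, and in Ctrl those within coding genes, were found about as rarely. Coding gene ends made up 1318 of the 1961 other peaks in HD and 1811 of the 2973 in Ctrl. Among intergenic peaks, distance to genes did not go with sharing beyond counting error. HD peaks at most 10 kb from a gene end were found in 52.5% of 122 cases and those farther away in 48.3% (odds ratio 1.18, exact test, p = 0.579, adjusted p = 0.732). Ctrl peaks were found in 27.4% of 234 cases and 25.4% farther away (odds ratio 1.10, exact test, p = 0.732, adjusted p = 0.732). None of the 4 HD and 6 Ctrl peaks beyond 100 kb was found in the other list, which with exact binomial intervals allows shares of up to 60.2% in HD and 45.9% in Ctrl. Of the intergenic peaks in 1 list only, 19 of 104 in HD and 37 of 296 in Ctrl had a peak of the other list within 10 kb.

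The peaks found in both lists were wider and held more fragments. Shared HD peaks had a median width of 298 bp and 42.0 fragments, against 254 bp and 34.5 fragments for HD-only peaks. Shared Ctrl peaks had 324 bp and 32 fragments, against 243 bp and 25 fragments for Ctrl-only peaks. Sharing was most frequent in the highest quintile of −log10 q, although among intergenic peaks it did not climb at every step. In the highest quintile of the list, 71.1% of 38 intergenic HD peaks (54.1 to 84.6) were found, against 87.4% of the other HD peaks, and 65.4% of 52 intergenic Ctrl peaks (50.9 to 78.0), against 67.9% of the others. In the lowest quintile, 37.7% of 53 intergenic HD peaks and 39.0% of the others were found, and 8.57% of 105 intergenic Ctrl peaks (3.99 to 15.6) and 21.2% of the others (17.9 to 24.8). The intergenic share was the lower one in 4 HD quintiles, the third being the exception, and in all 5 Ctrl quintiles.

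**Figure D3:**
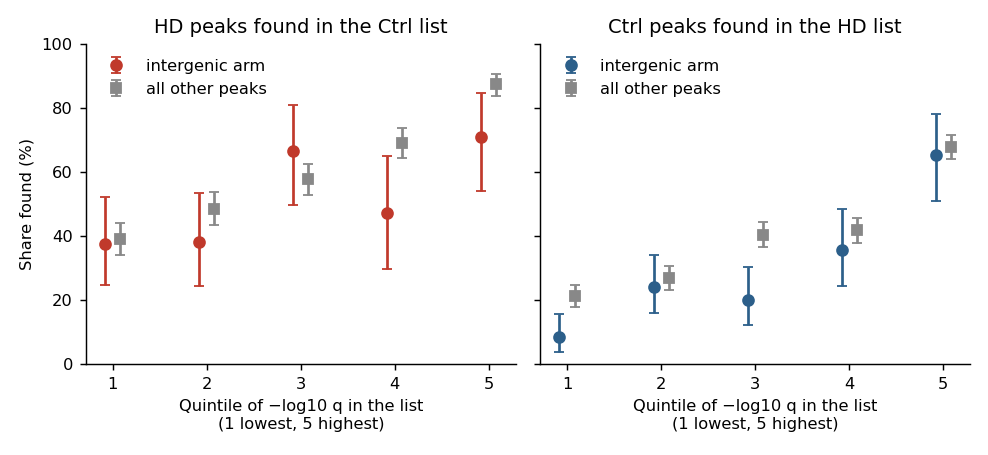
Percent of peaks found in the other list by quintile of −log10 q within the list, for intergenic arm peaks (circles) and all other peaks (grey squares), with HD on the left and Ctrl on the right and exact 95% binomial intervals. Shares run up to 71.1% of intergenic peaks in HD and 65.4% in Ctrl in the highest quintile.

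Input was high at many intergenic sites. The shares at high and ordinary input are given as description, without a test. The caller's expectation from input exceeded 2 times its genome-wide value at 74 HD peaks (35.1%) and 114 Ctrl peaks (28.3%), against 24.8% of other HD peaks and 27.6% of other Ctrl peaks. Of the high-input intergenic peaks, 41 of 74 in HD (55.4%, 43.4 to 67.0) and 46 of 114 in Ctrl (40.4%, 31.3 to 49.9) were found in the other list. Of those with ordinary input, 66 of 137 in HD (48.2%, 39.6 to 56.9) and 61 of 289 in Ctrl (21.1%, 16.5 to 26.3) were found. The other peaks of ordinary input were found in 59.7% of cases in HD and 39.6% in Ctrl. With high-input peaks left out of both lists, the Ctrl intergenic share was 17.6% against 26.6% with them. Enrichment over input, as the ratio of ChIP fragments to input on the same scale, had a median of 2.96 in HD and 3.21 in Ctrl at high-input intergenic peaks, and 4.72 in HD and 4.95 in Ctrl at the rest.

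**Figure D4:**
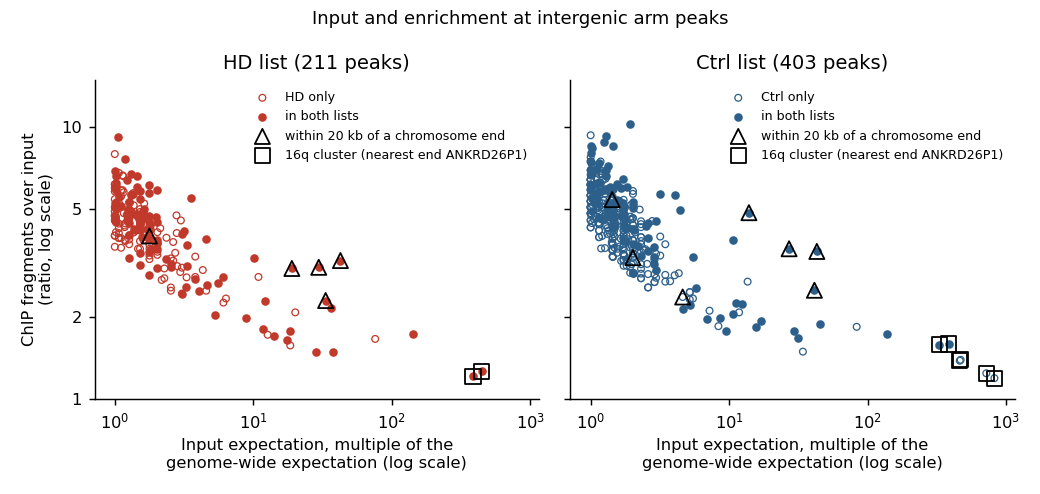
Ratio of ChIP fragments to input (log scale) against the input expectation as a multiple of the genome-wide one (log scale), 1 point per intergenic arm peak, HD on the left and Ctrl on the right, filled where the peak is in both lists. Triangles mark peaks within 20 kb of a chromosome end and squares the 16q cluster, whose ratios are 1.21 and 1.26 in HD and run between 1.19 and 1.59 in Ctrl.

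Where both lists had the peak, the HD signal was usually somewhat below the Ctrl signal, as it was at all other shared peaks. In 106 pairs both peaks met the intergenic rule. Signal was expressed as fragments at the summit over the genome-wide mean of its own ChIP track, which was 5.51 fragments in HD and 3.74 in Ctrl. By this measure the median was 7.62 in HD and 8.56 in Ctrl, and the median HD to Ctrl ratio was 0.895 (quartiles 0.779 and 1.00), below 1 in 79 pairs and above 1 in 26. The other 1190 pairs had a median ratio of 0.899 (0.782 and 1.02). Only peaks called in both lists form pairs. The fewest fragments at a called intergenic summit were 20 in HD and 16 in Ctrl. Over the genome-wide means this floor was lower in HD than in Ctrl, and its effect on the ratios was not tested. The 95% counting interval of the ratio lay below 1 in 8 of the 106 intergenic pairs and above 1 in 1. Among the other 1190 pairs it lay below 1 in 52 and above 1 in 8. All of the intergenic pairs with such an interval had input over 2 times its genome-wide value in at least 1 list. In the 51 pairs with input at most 2 times that value in both lists, the median ratio was 0.823, with 0 intervals below 1 and 0 above 1. The 8 intergenic pairs with intervals below 1 were chosen after their values were seen. Among them, the peak near NTM, the gene of a neuronal adhesion protein, had 66 HD and 74 Ctrl fragments (ratio 0.605, 0.427 to 0.854). A peak near LINC01943 had 67 HD and 82 Ctrl fragments (ratio 0.554, 0.395 to 0.775). The LOC105378678 peak shown above had a ratio of 0.591 (0.362 to 0.961). These ratios are scaled for depth and leave input out. Over input, the LOC105378678 peak stood at 3.47 in HD (2.40 to 4.85) and 3.61 in Ctrl (2.57 to 4.94), intervals that overlap. The NTM peak stood at 5.90 times the input in HD (4.56 to 7.50) and 10.3 times in Ctrl (8.07 to 12.9). The pair with the interval above 1 lay near LOC101927691 on chromosome 6, with 158 HD and 64 Ctrl fragments (1.67, 1.24 to 2.27). That HD peak also overlapped a second Ctrl peak of 104 fragments, which the ratio does not use. In the pair, input was 17.5 times its genome-wide value in HD and 8.66 times in Ctrl.

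**Figure D5:**
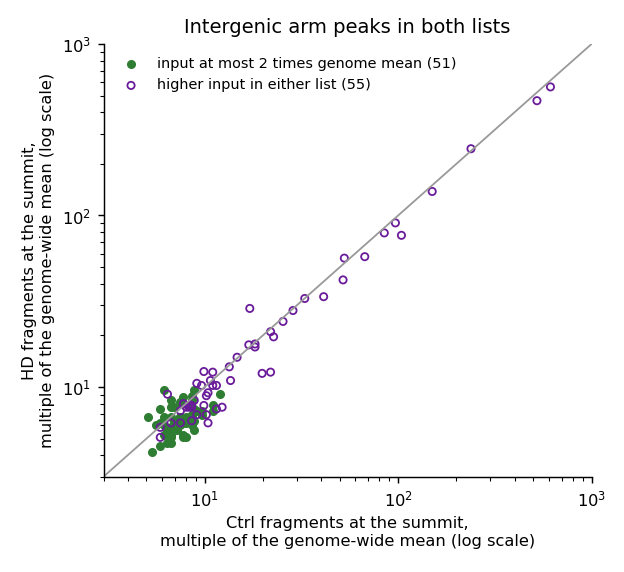
HD against Ctrl fragments at the summit for the 106 intergenic pairs, each as a multiple of the genome-wide mean of its track (log scales), with the line of equality. Points lie below the line in 79 pairs, and the pairs of high input (open) reach 562 in HD and 613 in Ctrl.

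Several of the strongest intergenic peaks sat at the tips of chromosomes, next to the telomere, holding ranks 1, 2, 4 and 5 by −log10 q in HD and 1, 3, 4 and 6 in Ctrl. Within 20 kb of a chromosome end there were 5 HD peaks and 7 Ctrl peaks, of which 4 in each list were shared. That is 596 peaks per 100 Mb in HD (194 to 1391) and 834 in Ctrl (335 to 1719), against 13.9 in HD and 26.8 in Ctrl over the remaining eligible sequence. The peak at the tip of 5p (chromosome 5, 10078 to 11750 in HD and 10059 to 11734 in Ctrl) was the first of these in both lists, with 760 HD fragments (707 to 816) and 561 Ctrl fragments (516 to 609), 3.23 times the input in HD and 3.49 times in Ctrl. At the tip of 12q (133264986 to 133265269 in HD) there were 499 HD fragments (456 to 545) and 362 Ctrl fragments (326 to 401), 3.05 times the input in HD and 3.57 times in Ctrl. At the tip of 10p (10060 to 10334 in HD) there were 317 HD fragments (283 to 354) and 251 Ctrl fragments (221 to 284), 3.02 times the input in HD and 4.85 times in Ctrl. At the tip of Xq, near the pseudogene DDX11L16, there were 422 HD fragments (383 to 464) and 388 Ctrl fragments (350 to 429), 2.30 times the input in HD and 2.51 times in Ctrl. Each of these peaks lay 10.0 to 10.2 kb from the end of the chromosome in hg38 coordinates, which count unassembled gaps.

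The HD to Ctrl ratio of the depth-scaled signal was 0.919 (0.823 to 1.03) at 5p, 0.935 (0.815 to 1.07) at 12q, 0.856 (0.723 to 1.01) at 10p and 0.738 (0.641 to 0.849) at Xq. The Xq interval alone among the 4 lay wholly below 1, by a ratio that leaves input out. Over input, the 10p peak stood at 3.02 in HD (2.70 to 3.37) and 4.85 in Ctrl (4.27 to 5.48). These intervals take the input as known, and they do not overlap. At 12q the values were 3.05 in HD (2.79 to 3.33) and 3.57 in Ctrl (3.21 to 3.96), intervals that overlap. Input at these tips was 19 to 42.6 times its genome-wide value in HD and 13.9 to 43.0 times in Ctrl, and sequences at chromosome tips resemble each other, so reads of several tips can be placed at 1 of them. The weaker peaks were list-specific. The tip of 21q had a peak of 39 HD fragments and another of 29 Ctrl fragments, 0.84 kb apart, and the tips of 12p (41 fragments) and 4q (25 fragments) had Ctrl peaks alone. Over the outer 1 Mb of all chromosomes, 21 HD peaks gave 93.9 per 100 Mb and 36 Ctrl peaks gave 161, against 13 in HD and 25.2 in Ctrl elsewhere.

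Other strong peaks lay where input was also high. On the proximal long arm of chromosome 16, which carries a block of satellite heterochromatin, 2 HD peaks and 6 Ctrl peaks lay within 12.5 kb (46388652 to 46401144 in Ctrl), about 9.54 Mb from the centromere midpoint and 68.2 to 80.4 kb from the pseudogene ANKRD26P1. They met the distance rule for arms although they lie in pericentromeric sequence. The HD peaks had 3099 (2991 to 3210) and 2574 (2476 to 2675) fragments, only 1.26 and 1.21 times the input. Their Ctrl partners had 2293 (2200 to 2389) and 1951 (1865 to 2040), 1.59 and 1.58 times the input. The other 4 Ctrl peaks there had 2384 to 3668 fragments and were not in the HD list, although the nearest HD peaks were 0.491 to 1.86 kb away. Near the tip of 10q, beside DUX4L20, a DUX4-like pseudogene of the D4Z4 repeat array, an HD-only peak of 693 fragments (642 to 747, 1.66 times input) and a Ctrl-only peak of 575 (529 to 624, 1.84 times input) lay 0.797 kb apart. On 18p, a shared peak inside ROCK1P1, a pseudogene of the kinase gene ROCK1, had 1350 HD and 889 Ctrl fragments with a ratio of 1.03 (0.945 to 1.12). A second shared peak, 1.55 kb outside ROCK1P1, had 436 HD and 317 Ctrl fragments with a ratio of 0.933 (0.805 to 1.08). The remaining 2 of the 8 best-ranked pairs were near the pseudogene ACO2P2 on chromosome 1, with 185 HD and 154 Ctrl fragments, and near LINC01638 on chromosome 22, with 108 HD and 85 Ctrl fragments.

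Most intergenic peaks stood alone, and groups of 3 or more within 10 kb of each other occurred once in HD and 6 times in Ctrl. These groups held 3 of 211 HD and 23 of 403 Ctrl peaks. The HD group and a Ctrl group coincided near LOC107985534 on chromosome 22, with 46 to 67 fragments in HD and 33 to 48 in Ctrl, and 2 peaks of each were shared. Near LINC01943 on the short arm of chromosome 2, 5 Ctrl peaks spread over 16.1 kb with 23 to 82 fragments, of which 2 were in the HD list. On 18p, 3 Ctrl peaks (29 to 889 fragments) spanned 13.9 kb, of which 2 were shared. Groups of 3 Ctrl peaks near LINC01303 on chromosome 14 (30 to 37 fragments, input 2.2 to 3.46 times its genome-wide value) and near LOC102723825 on chromosome 2 (21 to 25 fragments, input 1.00 to 1.15 times) had 1 shared peak each. The 16q cluster was the largest.

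Where input was at most 2 times its genome-wide value in both lists, the 8 best-ranked shared peaks held 38 to 53 fragments in HD and 31 to 45 in Ctrl. These pairs were chosen after their values were seen. The best-ranked lay near LOC105374777 on chromosome 2 (64750873 to 64751448 in HD), with 50 HD and 45 Ctrl fragments and a ratio of 0.753 (0.494 to 1.15). The next lay 5.92 kb from FLYWCH1, a zinc finger gene, with 49 HD and 32 Ctrl fragments and a ratio of 1.04 (0.652 to 1.68). A peak 4.17 kb from DAG1, the gene of dystroglycan, a receptor for extracellular matrix, had 43 HD and 41 Ctrl fragments (0.711, 0.453 to 1.12). A peak near TMCC2 had 46 HD and 32 Ctrl fragments (0.975, 0.608 to 1.58). All 4 intervals include 1. A peak near PAX8, a transcription factor gene of thyroid and kidney development, had 40 HD and 41 Ctrl fragments (0.662, 0.417 to 1.05). The PAX8 pair was not among the 8 best-ranked and was also chosen after its values were seen.

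Among peaks in the HD list alone, the highest −log10 q after the D4Z4 site belonged to 169 fragments near IGKV1OR1-1, a displaced immunoglobulin segment on chromosome 1, where input was 10.9 times its genome-wide value and a Ctrl peak lay 0.220 kb away. Further peaks lay near LOC105377635 on chromosome 2, with 73 fragments, 2.03 kb from a Ctrl peak, and near LOC124905098 on chromosome 22, with 75 fragments, 189 kb from any Ctrl peak. A peak near LINC02500 on chromosome 4 (181240585 to 181241661) held 44 fragments (32 to 59.1). That was 7.98 times the caller's expectation, which stood at its genome-wide value. No Ctrl peak lay within 8781 kb of this HD peak. Its nearest coding gene was TENM3, a teneurin of neuronal wiring, 206 kb away. A peak 1.21 kb from TAF11L10 had 230 fragments at 20.1 times the genome-wide input. Peaks near LOC730668 on chromosome 22, 20.3 kb from the WNT ligand gene WNT7B, and 2.44 kb from GPRC5C, an orphan receptor gene, had 42 fragments (30.3 to 56.8) each.

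Among peaks in the Ctrl list alone, the 16q cluster and the D4Z4 site held the first 5 places by −log10 q. The next lay on 16p, 38.4 kb from SOX8, a developmental transcription factor gene, with 137 fragments (115 to 162), 2.70 times a raised input and 283 kb from any HD peak. A peak 15.3 kb from GLIS2, a zinc finger transcription factor gene, had 35 fragments (24.4 to 48.7), 9.36 times the input, and lay 44.9 kb from any HD peak. A peak 15.3 kb from PIM3, the gene of a serine/threonine kinase, had 44 fragments (32 to 59.1), 5.83 times the input, with an HD peak 14.8 kb away. The caller's expectation from input was 2.02 times its genome-wide value at PIM3 and 13.6 times it at SOX8. At the GLIS2 peak it equalled that value, so the 9.36 is a ratio to the genome-wide expectation.

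The remotest peaks were list-specific and mostly of modest size. In HD, the farthest from any gene end were 2 HD-only peaks on chromosome 9, 207 kb and 173 kb from the pseudogene CNTNAP3P4, with 76 and 59 fragments at 6.09 and 3.81 times the genome-wide input. The next HD-only peak, 142 kb from LOC105377009 on chromosome 3, had 24 fragments (15.4 to 35.7). In Ctrl, the farthest was a Ctrl-only peak of 48 fragments (35.4 to 63.6) on chromosome 9, 200 kb from CNTNAP3P4 and 6.37 kb from the farthest HD peak. The next Ctrl-only peak, on chromosome 18, had 26 fragments (17 to 38.1) and lay 146 kb from a gene end and 607 kb from the nearest coding gene, SALL3, a zinc finger factor. A Ctrl peak near LINC02496 on chromosome 4 had 23 fragments, 139 kb from a gene end. The farthest shared pair lay 97.0 kb from LOC124902074 on chromosome 8, with 41 HD (29.4 to 55.6) and 43 Ctrl (31.1 to 57.9) fragments.

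Inside noncoding genes, the peaks deepest within the gene lay in PVT1, a lncRNA gene next to the MYC oncogene on chromosome 8. A shared peak 111 kb from MYC and 58.0 kb from MIR1204, a microRNA gene within PVT1, had 51 HD fragments (38.0 to 67.1) and 39 Ctrl fragments (27.7 to 53.3), with a ratio of 0.887 (0.573 to 1.38). A second HD peak, 2.26 kb from the nearest Ctrl peak, had 35 fragments (24.4 to 48.7). A second Ctrl peak in PVT1, 45.2 kb from LINC02912, had 27 fragments (17.8 to 39.3) and lay 46.6 kb from any HD peak. Over all noncoding gene bodies, 20 of 33 HD peaks (60.6%, 42.1 to 77.1) and 19 of 75 Ctrl peaks (25.3%, 16 to 36.7) were found in the other list, against 48.9% in HD and 26.8% in Ctrl of those in no gene, differences that were not tested and whose intervals overlap.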

How the data were processed

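Chromatin of U2OS cells was fixed with formaldehyde and sonicated, per the labels' protocols. Reads were processed with Bowtie2 2.5.0 and MACS2 2.2.7.1 on hg38, per the submitters' processing notes, and the deposited files hold 1 MACS2 list of peaks for HD and 1 for Ctrl. Each peak has a fold enrichment (a ratio over local input), −log10 p, −log10 q and a display score, all as deposited by the authors. The score was not used. The sources used here do not state settings, duplicate removal or use of both libraries, and input files were not analysed here.

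The fold is (pileup + 1) / (expectation + 1) and p the upper Poisson tail of the pileup, fragments (whole numbers) times a scale (0.715 in HD, 0.927 in Ctrl). The genome-wide expectation was 3.94 in HD and 3.46 in Ctrl. Where a peak's expectation equalled this value, local input cannot be read from it. Its ratio to input is then a ratio to the genome-wide expectation. A whole number matched the −log10 p within 0.01 for all 211 HD and 403 Ctrl intergenic peaks, and for 15 HD and 17 Ctrl peaks more than 1 did, of which the closest was taken. The fragment depth at the genome-wide mean was 1.47 times as high in HD as in Ctrl. The fewest fragments at a called intergenic summit were 20 in HD and 16 in Ctrl. Amplified reads are not independent molecules, so intervals cover counting error only, and ratios to input take the input as known.

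Gene positions came from a RefSeq table of GRCh38.p14, the assembly of hg38, with 798 of its 59792 entries (on scaffolds or without a place) left out. Positions are 1-based. Sharing was tested by the two-sided Fisher exact test (SciPy 1.17.1) over peaks, adjusted by Benjamini-Hochberg over 4 tests. Peaks are the units, so p-values describe these lists and not replicate cultures. The scripts were tested on simulated data. Peak sequences other than promoter windows were not read here. The members, tests and named peaks (8 shared, 8 HD-only and 8 Ctrl-only by −log10 q, 3 per class by distance, groups of 3 or more, and the 3 deepest in noncoding genes) were chosen with earlier results of these data known.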

Additional observations from a re-analysis of the deposited data

How the results depend on the processing

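The 10 results were recomputed under 8 other settings, without high-input peaks and, for odds ratios, within strata of −log10 q. The last 2 were chosen after seeing the data. Of 94 values, 78 kept their direction, threshold side and interval. With 2172 peaks from each list, 37.9% of HD and 35.4% of Ctrl intergenic peaks were found in the other list, the Ctrl list share was 10.4%, and the Ctrl odds ratio for nearness to genes reversed to 0.939 without passing its test. With more than 5 kb from gene ends, the list shares were 6.12% in HD and 7.64% in Ctrl, and the median distances 13.5 kb in HD and 14.3 kb in Ctrl, since nearer peaks were removed by construction. The HD sharing odds ratio of 0.669 then missed the threshold, with fewer members. Beyond 10 Mb from centromere midpoints the Ctrl list share was 10.8%. Without peaks inside noncoding genes the list shares were 8.20% in HD and 9.72% in Ctrl. Without high-input peaks, 38.0% of HD and 17.6% of Ctrl intergenic peaks were found in the other list, and the HD list share was 8.50%. Within quintiles of −log10 q the HD odds ratio was 0.718 and missed the threshold. The cause was not tested. No paired analysis was possible because each condition has 1 peak list that carries no value per library, and leaving out a replicate was not possible for the same reason. A peak of fewer than 20 fragments in HD or 16 in Ctrl was not called among these sites, which limits what a missing peak can show.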
